A study of Homo sapiens with 9 samples.

Results

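DNA replication and S phase genes were followed in human dermal microvascular endothelial cells (HMEC-1) exposed to trimethylamine-N-oxide (TMAO), a metabolite made in the liver from a product of gut bacteria. The group holds 46 genes, taken by symbol from a list of the replication machinery and its G1/S regulators, out of 29740 genes in the counts. All 46 passed the filter on low counts, as did 14740 genes in all. RNA was sequenced from 3 libraries each of untreated cells (CTRL), cells given 50 µM TMAO for 24H and cells given 50 µM TMAO for 48H. HMEC-1 is 1 line, immortalised with the SV40 large T antigen, and every group shares that background. Per the study's methods the cells were treated in serum-reduced medium, and the untreated controls of both time-points were pooled into 1 group. TMAO and time in culture therefore cannot be told apart in a comparison with CTRL. The same holds between 48H and 24H, where both differ. The labels do not say that the libraries of a group came from separate cultures, so p-values measure the spread between these libraries only.

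Before S phase, the origin recognition complex, CDC6 and CDT1 load the MCM2-7 ring onto DNA, a step called licensing. At the G1/S transition the cyclin E kinase and the E2F factors switch on the genes of the next step, and CDC45 and the GINS proteins join MCM2-7 to form the active helicase (CMG). Polymerase alpha with primase starts each strand, the RFC loader places the PCNA clamp, and polymerases delta and epsilon extend the DNA. In most adult endothelium these genes are nearly silent because the cells rarely divide, whereas cultured HMEC-1 cycle. Large T binds the RB proteins, which hold E2F factors in check in cells without it.

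Library totals were 25205756 to 36927373 estimated counts. Ribosomal RNA (6 genes) took up 31.5% of TMAO 24H replicate 1 and 1.64% to 7.46% of every other library, and results were also computed with it removed. All 14 endothelial markers were detected, with PECAM1 at 277 to 365 CPM (counts scaled to a common library size with TMM factors) and CDH5 at 552 to 747 CPM. Summed over the 14, they reached 3070 to 3410 CPM in CTRL, 3060 to 3250 CPM at 24H and 2710 to 2950 CPM at 48H, and 8 of the 14 fell at 48H by edgeR, against 5.29% of all genes tested. Of 19 markers of other cell types, PTPRC, DCN and LUM were at or near 0, whereas KRT18 (548 to 705 CPM) and COL1A1 (404 to 715 CPM) were abundant, and the sum of the 19 was 1710 to 1920 CPM in CTRL, 1690 to 1800 CPM at 24H and 1290 to 1320 CPM at 48H. The part of these shifts in the results below was not tested. In bulk RNA, fewer cells in S phase and less RNA per cell cannot be told apart.

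The replication genes stayed close to their control level at both time-points. Their summed level was 6270 to 6540 CPM in the 3 CTRL libraries, 6380 to 6530 CPM at 24H and 6370 to 6470 CPM at 48H. The 3 groups overlap on this sum. After 24H, 0 of the 46 genes passed an adjusted p of 0.05 by edgeR's quasi-likelihood test, where 0.095% of all genes tested did, and DESeq2 also gave 0. At an unadjusted p under 0.05 (7.24% of all genes tested) there were 4 genes, ORC1 and CHAF1B with higher values and RFC2 and E2F1 with lower ones. After 48H, 3 genes passed, where 10.4% of all genes tested did. MCM6 rose (5.14% of all genes did), and POLD1 and UHRF1 fell (5.29% did). Between 48H and 24H, 2 genes passed (7.53% of all genes tested), POLD1 and UHRF1, both lower at 48H, as were 3.77% of all genes, with 0 members and 3.77% of all genes higher. The share of the members that passed was 6.52% at 48H and 4.35% between the time-points, near those backgrounds, and the differences in share were not tested. With DESeq2, 4 members passed at 48H (13.5% of all genes with an adjusted p) and 5 between the time-points (9.35%).

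The sizes of the differences were small. The median log2 fold change of the 46 genes was 0.02 at 24H and 0.012 at 48H, against -0.00042 and 0.004 for all genes tested. The 2 time-points share their controls. Single values ran from -0.14 (TYMS) to 0.13 (ORC1) at 24H and from -0.22 (POLD1) to 0.17 (MCM6 and CCNE2) at 48H. The median size regardless of sign was 0.039 at 24H and 0.049 at 48H, against 0.0617 and 0.109 over all genes tested. The members had a median of 73.7 CPM in CTRL, against 24.5 CPM over all genes tested. The backgrounds for sizes and intervals were not matched for level. With edgeR, DESeq2 and a test against a 1.4-fold change alike, 0 of the 46 genes reached both an adjusted p under 0.05 and a 1.4-fold change in any comparison (0.0475%, 1.8% and 1.71% of all genes tested at 24H, at 48H and between them). The 95% interval of the log2 fold change lay within 1.4-fold in both directions (0.485 on the log2 scale) for all 46 genes at 24H and at 48H, and for 45 between the time-points. Over all genes tested this held for 76.4%, 71.5% and 72.2%. The exception was CCNE1, the member with the fewest counts, with an interval from -0.50 to 0.06 between 48H and 24H.

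**Figure D1:**
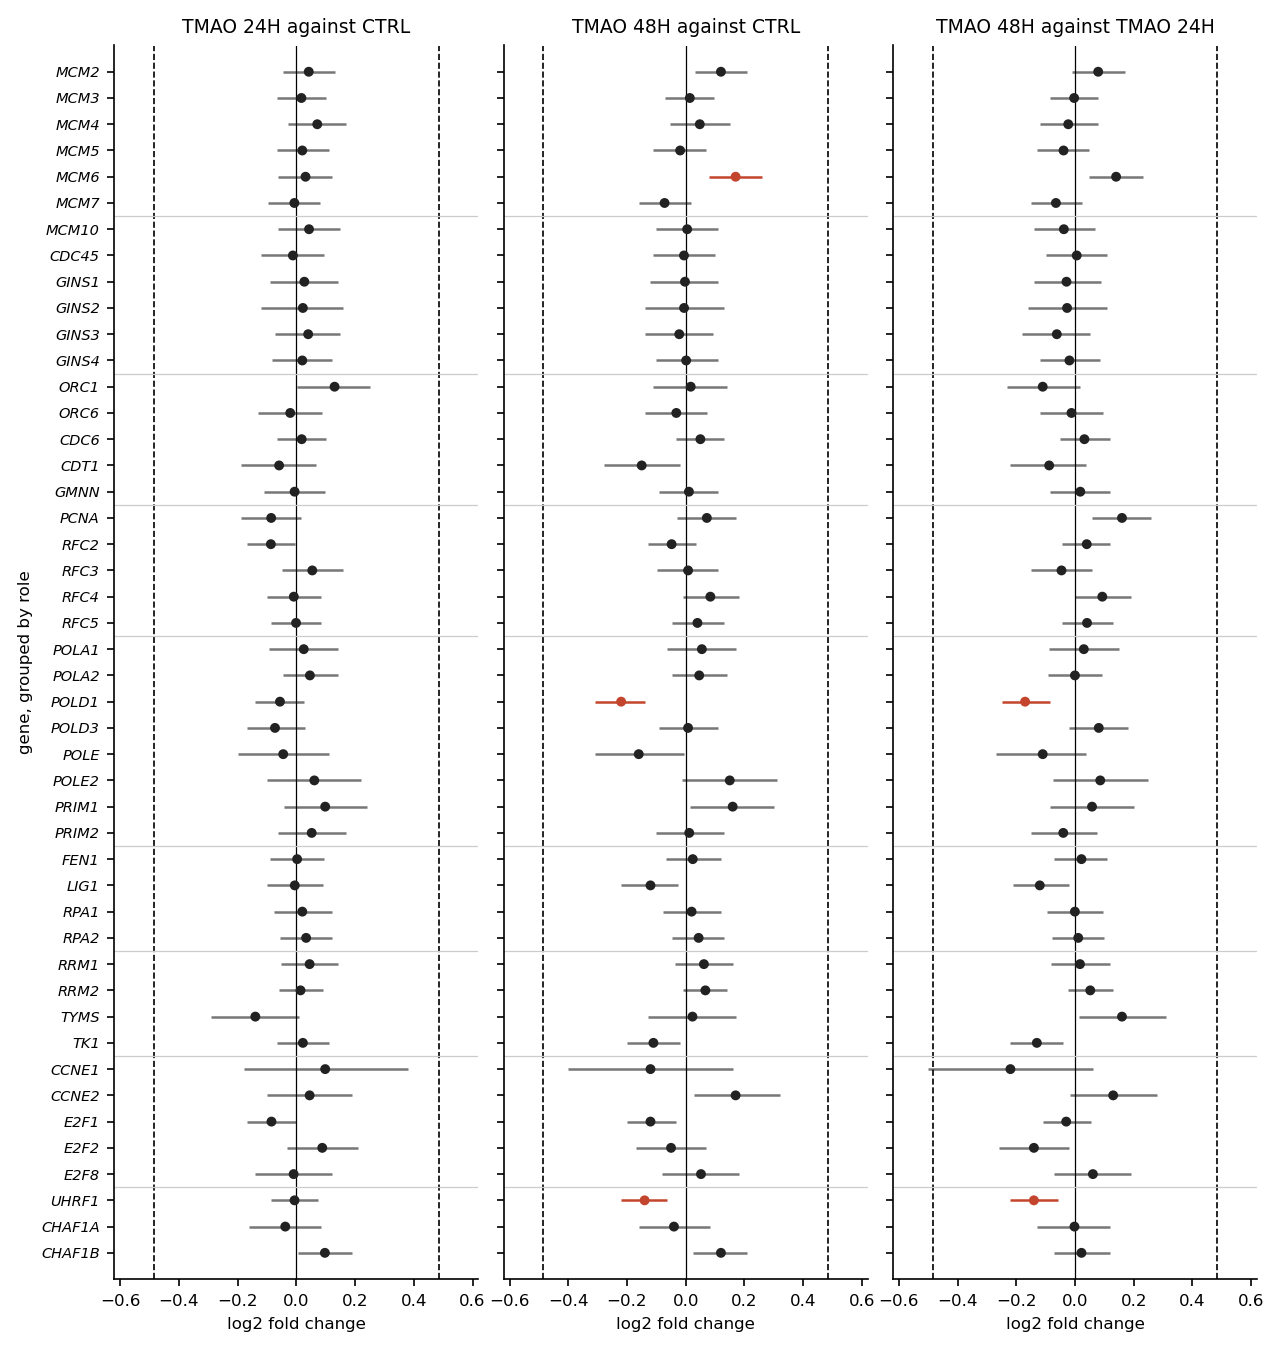
Log2 fold change (x axis) of the 46 replication genes, grouped by role (y axis), for TMAO 24H against CTRL, 48H against CTRL and 48H against 24H. Points are estimates, bars are 95% intervals, dashed lines mark 1.4-fold, and red marks an adjusted p under 0.05; MCM6, POLD1 and UHRF1 are red at 48H, and no point reaches a dashed line.

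The number of members whose treated libraries lay wholly apart from the controls was set beside the share of all genes. At 24H the 3 treated libraries were all above the 3 controls for 5 genes and all below them for 3, where 14.2% of all genes tested showed such a separation in either direction. At 48H the counts were 6 and 7 of the 46 (27.8% of all genes), and between 48H and 24H they were also 6 and 7 (27.6% of all genes). At an unadjusted p under 0.05 there were 12 members at 48H, 5 higher and 7 lower (25.8% of all genes tested), and 9 between the time-points, 4 higher and 5 lower (22.1% of all genes tested). The members were measured with less spread than most genes. Their coefficient of variation within groups had a median of 3.31%, from 0.655% for RRM2 to 8.83% for CCNE1, against 5.92% over all genes with a value.

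**Figure D2:**
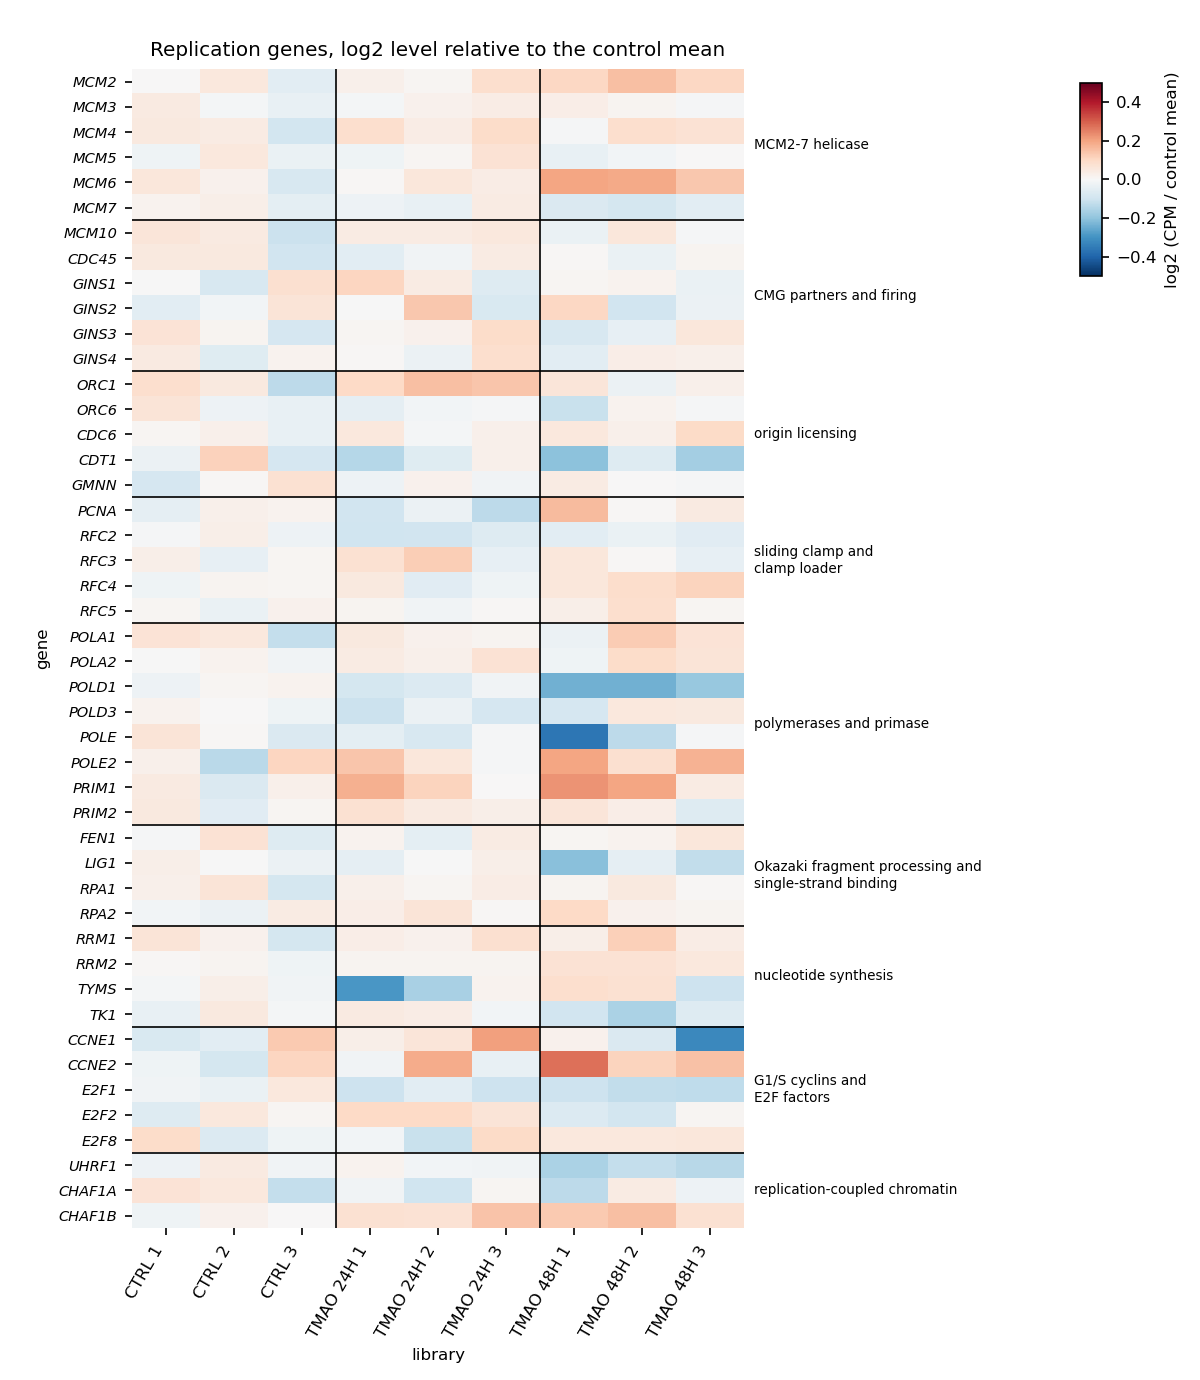
Log2 ratio of CPM to the control mean (colour) for each of the 46 replication genes (rows, grouped by role) in the 9 libraries (columns). The darkest single cells are POLE in TMAO 48H replicate 1, CCNE1 in TMAO 48H replicate 3 and TYMS in TMAO 24H replicate 1, while POLD1 and UHRF1 are blue and MCM6 is red in all 3 libraries at 48H.

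The 250 bases before the start are shown for the 3 genes that passed the test, to set the letters bound by E2F factors beside their values. E2F factors are known to bind promoters of S phase genes, and 4 spellings were searched on both strands, TTTCCCGC, TTTCGCGC, TTTGCCGC and TTTGGCGC. Windows from 250 bases before to 50 bases after each start were taken from RefSeq (GRCh38.p14), where 39 of the 46 genes had at least 1 window. Of these, 21 (53.8%) held a spelling, against 1090 of 27305 genes (3.99%) with a window of that length. That background was not limited to genes that passed the filter on low counts, as all members did, nor matched for the number of windows. Sequences run 5′ to 3′ on the strand of the gene, and capitals mark the matches:
MCM6, chr2:135876444-135876693 (- strand): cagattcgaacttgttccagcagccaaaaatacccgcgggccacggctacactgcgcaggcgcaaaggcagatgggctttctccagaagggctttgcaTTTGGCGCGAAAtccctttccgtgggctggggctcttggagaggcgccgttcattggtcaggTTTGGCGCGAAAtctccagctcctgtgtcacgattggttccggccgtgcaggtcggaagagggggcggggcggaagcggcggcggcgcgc
UHRF1, chr19:4909251-4909500 (+ strand): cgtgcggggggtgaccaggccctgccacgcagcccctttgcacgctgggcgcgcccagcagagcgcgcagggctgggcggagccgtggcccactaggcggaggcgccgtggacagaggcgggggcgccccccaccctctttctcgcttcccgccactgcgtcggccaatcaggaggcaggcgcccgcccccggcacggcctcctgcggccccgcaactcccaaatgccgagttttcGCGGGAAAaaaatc
POLD1, chr19:50384073-50384322 (+ strand): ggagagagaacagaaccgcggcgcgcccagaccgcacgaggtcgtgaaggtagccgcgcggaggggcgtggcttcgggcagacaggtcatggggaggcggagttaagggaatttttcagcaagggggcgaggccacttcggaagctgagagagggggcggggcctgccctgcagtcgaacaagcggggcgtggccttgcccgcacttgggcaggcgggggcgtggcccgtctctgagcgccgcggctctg

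The MCM6 window held 4 overlapping matches at 2 places, beginning 152, 148, 90 and 86 bases before the start. UHRF1 had 3 windows, and in the one shown the match began 14 bases before the start, on the other strand. POLD1 had 2 windows, neither of which held one of these spellings. A match is a description of the letters only, and its absence from a window says nothing about the factor. Other motifs were searched in the same way, and a gene counted where any of its windows held one. CCAAT was present for 59% of the 39 genes and 39.7% of all genes, and GGGCGG (the GC box, which can share letters with the E2F spellings) for 74.4% and 48.3%. The CHR letters TTTGAA, known from promoters of G2/M genes, were present for 2.56% and 18.2%.

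A match from 1 further member is given for each role that had one, with 10 bases on either side, to show the letters the promoters have in common. The first member in list order was taken, and capitals mark its first match:
MCM2, chr3:127598403-127598430 (+ strand): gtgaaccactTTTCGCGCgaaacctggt
CDC6, chr17:40287876-40287903 (+ strand): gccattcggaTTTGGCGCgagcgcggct
GINS1, chr20:25407668-25407695 (+ strand): gctttgttcgGCGCCAAAgcgcggagcg
PCNA, chr20:5126664-5126691 (- strand): agcgtcagggGCGGGAAAaggcgtgcgt
POLA1, chrX:24693771-24693798 (+ strand): tcatcacaggGCGCCAAAcgcgcgtccg
LIG1, chr19:48170441-48170468 (- strand): cttcacccctTTTCCCGCcctcctccca
TYMS, chr18:657604-657631 (+ strand): cgggacggccGCGGGAAAaggcgcgcgg
E2F1, chr20:33686401-33686428 (- strand): tggctctttcGCGGCAAAaaggatttgg

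None of these 8 members passed edgeR's test in any comparison as first fitted. With DESeq2, MCM2 passed at 48H and PCNA between the time-points. Relative to the start, the first base of the match lay from 137 bases before it in POLA1 to 8 bases after it in CDC6.

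The MCM2-7 ring is the motor of the replicative helicase. MCM6, 1 of its 6 subunits, was at 198, 193 and 180 CPM in CTRL, at 191, 198 and 195 CPM at 24H and at 218, 217 and 209 CPM at 48H. All 3 libraries at 48H lay above the other 6. MCM6 rose 1.13-fold at 48H (log2 fold change 0.17, 95% interval 0.079 to 0.26, adjusted p = 0.0231 by edgeR). Against 24H its log2 fold change was 0.14 (0.048 to 0.23, adjusted p = 0.067). The rise at 48H lost its call without CTRL replicate 2 (adjusted p = 0.06), without CTRL replicate 3 (0.0672, log2 fold change 0.13) and without TMAO 48H replicate 2 (0.0863). The call was also lost when only the 2 groups were fitted (0.0713). The other 5 subunits did not pass at 48H, with log2 fold changes from -0.072 for MCM7 to 0.12 for MCM2. At 24H the 6 subunits had values from -0.007 to 0.071. MCM2 was at 282, 292 and 272 CPM in CTRL and at 303, 313 and 303 CPM at 48H, without overlap (adjusted p = 0.078 by edgeR), and it passed with DESeq2.

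The CMG partners CDC45 and GINS1 to GINS4 and the firing factor MCM10 had the narrowest range of any role at 48H, from -0.022 to 0.005, with 95% bounds from -0.14 to 0.13. GINS3 had the widest difference among them. It was at 56.1, 54 and 50.4 CPM in CTRL, 53.8, 54.2 and 57 CPM at 24H and 50.6, 51.9 and 55.6 CPM at 48H. The groups overlapped at both time-points, with log2 fold changes of 0.04 (adjusted p = 0.941 by edgeR) and -0.022 (adjusted p = 0.838).

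Among the licensing genes, 0 of 5 passed by edgeR or DESeq2 in any comparison. CDT1, the loader of MCM2-7 that is destroyed once S phase begins, was at 102, 113 and 98.2 CPM in CTRL, 94.4, 99.8 and 106 CPM at 24H and 90.4, 99.6 and 92.7 CPM at 48H. Replicate 2 of 48H lay within the range of the controls. The log2 fold change at 48H was -0.15 (-0.28 to -0.02, unadjusted p = 0.0266, adjusted p = 0.133 by edgeR). With an offset for the GC content of transcripts, described below, it was -0.034. GMNN, the inhibitor of CDT1, had a log2 fold change of 0.011, CDC6 of 0.05 and ORC6 of -0.032. ORC1, which binds origins in G1, was 1 of the 4 genes at an unadjusted p under 0.05 after 24H, with a log2 fold change of 0.13 (adjusted p = 0.686). All 3 of its libraries at 24H, at 42.6, 44.1 and 43.8 CPM, lay above the controls, at 42.2, 41.1 and 36.3 CPM. Its value at 48H was 0.017.

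PCNA is the clamp that tethers polymerases to DNA, and RFC2 to RFC5 are subunits of its loader. At 48H their log2 fold changes lay between -0.048 and 0.084 and none passed by edgeR or DESeq2, with 0 of 5 at an unadjusted p under 0.05. RFC4 had the value farthest from 0. It was at 57.3, 58.7 and 58.6 CPM in CTRL, 60.2, 55.9 and 57.4 CPM at 24H and 60.5, 61.8 and 62.8 CPM at 48H. Its libraries at 48H lay above the other 6, with a log2 fold change against CTRL of 0.084 (-0.0083 to 0.18, adjusted p = 0.236 by edgeR). PCNA, chosen after its values were seen, was lower in the 24H libraries (216, 226 and 211 CPM) than in those of 48H (258, 232 and 238 CPM), without overlap. The log2 fold change of that difference was 0.16 (0.057 to 0.26), with an adjusted p of 0.0601 by edgeR, and it passed with DESeq2.

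POLD1, the catalytic subunit of polymerase delta, had the largest change of the 46 genes. It was at 167, 171 and 172 CPM in CTRL, at 160, 162 and 168 CPM at 24H and at 144, 144 and 149 CPM at 48H. All 3 libraries at 48H lay below the other 6. POLD1 fell to 0.856-fold of CTRL at 48H (log2 fold change -0.22, -0.31 to -0.14, adjusted p = 0.00275 by edgeR) and was also below its level at 24H (-0.17, -0.25 to -0.086, adjusted p = 0.0155). At 24H it did not pass (-0.056, adjusted p = 0.819). The fall against CTRL kept its call whichever library was left out, with adjusted p from 0.00406 to 0.0193. The difference from 24H lost it without TMAO 24H replicate 2 (0.0517), TMAO 24H replicate 3 (0.086) or TMAO 48H replicate 2 (0.0728). In the GENCODE 29 annotation, 12.1% of its exon bases also lie in AC020909.1 on the same strand, a gene absent from the counts, so reads there cannot be assigned to either with certainty. POLD3, another subunit of polymerase delta, had a log2 fold change of 0.008 at 48H (-0.092 to 0.11).

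The other polymerase and primase genes did not pass in any comparison with edgeR as first fitted. POLE, the catalytic subunit of polymerase epsilon, had a log2 fold change of -0.16 at 48H (-0.31 to -0.0069, adjusted p = 0.174), with 186, 218 and 238 CPM at 48H against 250, 240 and 227 CPM in CTRL. The low value came from TMAO 48H replicate 1, and replicate 3 lay within the controls. POLE passed as lower at 48H with an offset for transcript length in the fit (-0.21, adjusted p = 0.0279) and without TMAO 48H replicate 3 (-0.24, adjusted p = 0.0306). The accessory subunit POLE2 had a value of 0.15 (adjusted p = 0.232) and PRIM1, the catalytic subunit of primase, of 0.16 (adjusted p = 0.151). For both, the libraries of 48H and CTRL overlapped. POLA1, POLA2 and PRIM2 lay between 0.012 and 0.055. Of the exon bases of PRIM1, 26% lie in AC117378.1 on the same strand, and of those of POLA2, 53.7% lie in AP000944.2. Members of other roles share exon bases too, among them RRM2 (27.9% in AC007240.1 on the same strand) and MCM2 (30.7% opposite AC023593.1).

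LIG1 seals Okazaki fragments after FEN1 has trimmed their flaps. LIG1 was at 177, 173 and 170 CPM in CTRL, 168, 173 and 177 CPM at 24H and 150, 168 and 159 CPM at 48H. None of the libraries at 48H reached the lowest control, yet the difference did not pass (log2 fold change -0.12, -0.22 to -0.025, adjusted p = 0.103 by edgeR). FEN1 had a value of 0.024, and RPA1 and RPA2, which coat single-stranded DNA, of 0.02 and 0.044.

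Ribonucleotide reductase (RRM1 and RRM2), thymidylate synthase (TYMS) and thymidine kinase 1 (TK1) supply deoxynucleotides. TK1 was at 292, 310 and 298 CPM in CTRL, 309, 308 and 297 CPM at 24H and 281, 269 and 287 CPM at 48H. Its libraries at 48H lay below the other 6. The log2 fold change was -0.11 against CTRL (-0.20 to -0.018, adjusted p = 0.118 by edgeR) and -0.13 against 24H (-0.22 to -0.04, adjusted p = 0.0792), and the latter passed with DESeq2 (adjusted p = 0.0195). With the GC content offset the values of TK1 were -0.011 against CTRL (adjusted p = 0.914) and -0.085 against 24H (adjusted p = 0.25). RRM2 was the gene with the least spread, at 316 to 324 CPM in CTRL and 333 to 337 CPM at 48H, and its log2 fold change was 0.067 (adjusted p = 0.255). TYMS had the lowest value of the 46 at 24H (-0.14, -0.29 to 0.01, adjusted p = 0.72), with 228, 249 and 282 CPM against 277, 284 and 275 CPM in CTRL. Only replicate 3 of 24H lay within the controls, and replicate 1, the lowest, is the library rich in ribosomal RNA. Without that library the values of all 46 genes at 24H ran from -0.08 to 0.14. TYMS shares 58.2% of its exon bases with ENOSF1 on the opposite strand, and the strand setting of the counting is not given in the sources used here.

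Cyclin E drives entry into S phase, and E2F1, E2F2 and E2F8 are factors that activate or, for E2F8, repress S phase genes. CCNE2 was at 63, 60.1 and 68.8 CPM in CTRL, 63.1, 72.6 and 62.2 CPM at 24H and 77.2, 68.9 and 70.6 CPM at 48H. The libraries at 48H lay just above the controls and overlapped those of 24H. Its log2 fold change at 48H was 0.17 (0.028 to 0.32, adjusted p = 0.122 by edgeR), and 47.5% of its exon bases lie opposite INTS8. E2F1 was below CTRL without overlap at both time-points, at 96.1 to 102 CPM in CTRL, 91.5 to 94.9 CPM at 24H and 90.2 to 91.6 CPM at 48H, with log2 fold changes of -0.085 (adjusted p = 0.683) and -0.12 (adjusted p = 0.0757). Both values rest on the same controls. With the GC content offset the values of E2F1 were -0.037 at 24H (adjusted p = 0.931) and -0.022 at 48H (adjusted p = 0.806). E2F8 had values of -0.0095 and 0.052. CCNE1 was low in every library, at 3.29 to 4.74 CPM.

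UHRF1 carries DNA methylation over to the new strand, and CHAF1A and CHAF1B load histones behind the fork. UHRF1 was at 224, 235 and 225 CPM in CTRL, 231, 226 and 225 CPM at 24H and 204, 210 and 207 CPM at 48H. The libraries at 48H lay below the other 6. UHRF1 fell to 0.906-fold of CTRL at 48H (log2 fold change -0.14, -0.22 to -0.063, adjusted p = 0.0265 by edgeR) and to 0.91-fold of 24H (-0.14, -0.22 to -0.057, adjusted p = 0.0397). At 24H its value was -0.0064. The call against CTRL was lost without CTRL replicate 1 (adjusted p = 0.0505), CTRL replicate 2 (0.11) or any one of the TMAO 48H libraries (0.0554, 0.0635 and 0.0519 for replicates 1 to 3). It was also lost when only the 2 groups were fitted (0.0732). The call against 24H was lost without CTRL replicate 1 (0.0538) and without any one of the 6 treated libraries (0.155, 0.1 and 0.104 for replicates 1 to 3 of 24H, and 0.08, 0.0833 and 0.0785 for those of 48H). CHAF1B had a log2 fold change of 0.12 at 48H (adjusted p = 0.0976) and CHAF1A of -0.04 (adjusted p = 0.718).

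**Figure D3:**
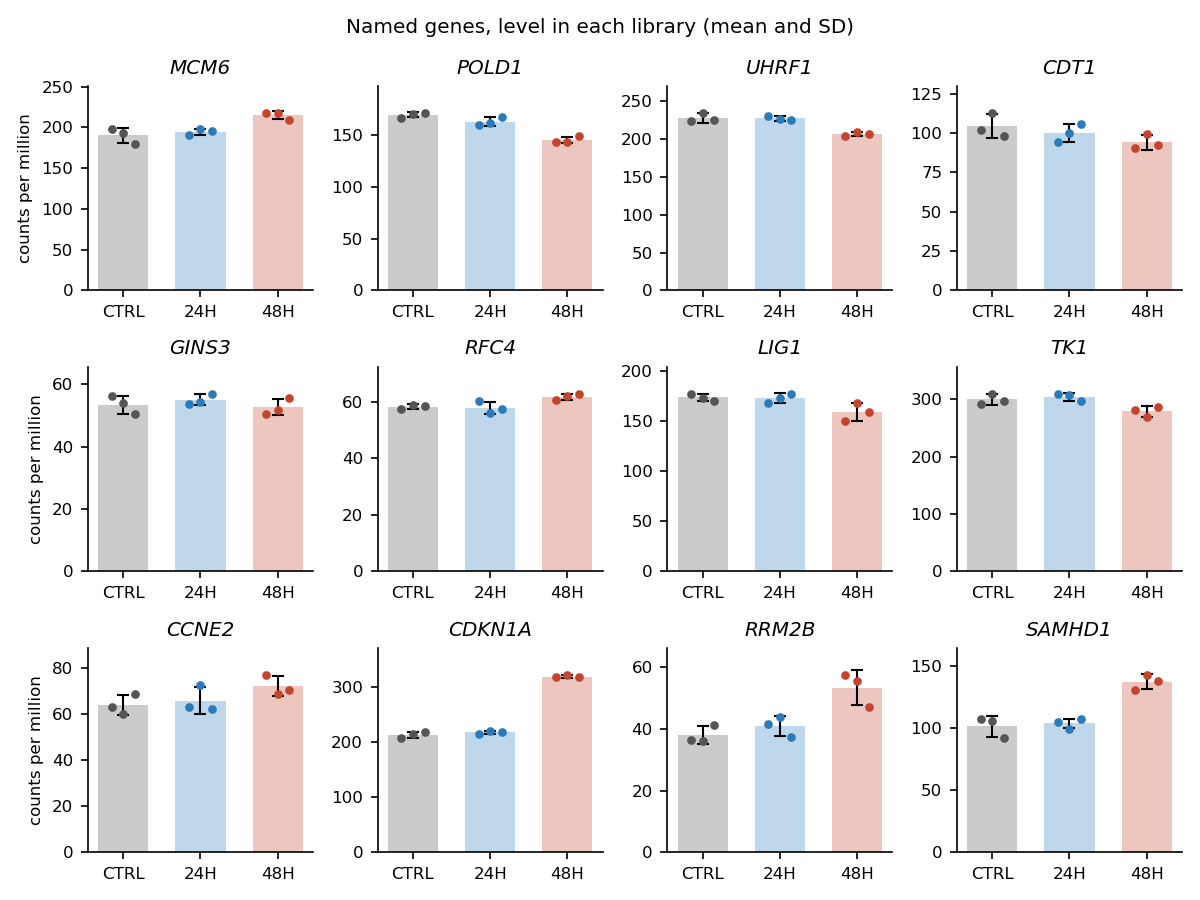
CPM (y axis, from 0) in each library of CTRL, TMAO 24H and TMAO 48H for 9 replication genes and 3 regulators outside the group. Bars are means, error bars are SD (n = 3) and points are libraries; at 48H the points of POLD1, UHRF1, LIG1 and TK1 lie below those of CTRL, those of MCM6, RFC4 and CCNE2 lie above, and CDKN1A, RRM2B and SAMHD1 show the widest gaps.

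The changes of the replication genes ran with the base composition of their transcripts. Across the 46 genes, the log2 fold change at 48H and the GC content of the longest annotated transcript had a Pearson's r of -0.71 and a Spearman's rho of -0.60, against -0.22 and -0.34 across 13262 genes with a value. These are descriptions across genes that share the same libraries. At 24H r was -0.31 and between the time-points it was -0.54. Of the 23 members above the median GC content of 48.4%, 15 had a negative log2 fold change at 48H, against 3 of the other 23. POLD1 had the highest GC content (65%) and CCNE2 the lowest (36.9%), while UHRF1 stood at 54.6% and MCM6 at 43.1%. With an offset for GC content in the fit, 0 of the 3 genes above passed at 48H, with adjusted p of 0.0572 for POLD1 (log2 fold change -0.11), 0.0622 for UHRF1 (-0.11) and 0.0745 for MCM6 (0.13). MCM2, at 58.1% GC, then passed (0.18, adjusted p = 0.0132), and 7.58% of all genes tested did. Between the time-points POLD1 still passed (-0.12, adjusted p = 0.0342) and UHRF1 did not (adjusted p = 0.0508). The r across members at 48H was then -0.22. The part of base composition in these differences was not otherwise tested.

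**Figure D4:**
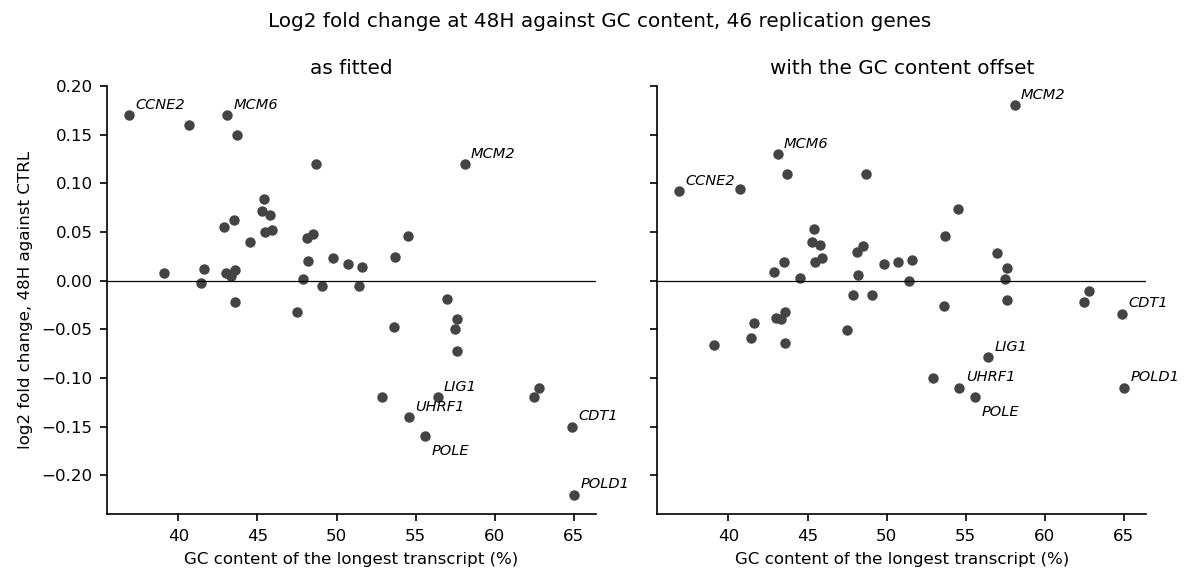
Log2 fold change at 48H against CTRL (y axis) and GC content of the longest transcript in percent (x axis) for the 46 replication genes, as fitted (left) and with the GC content offset (right). On the left MCM6 and CCNE2 stand at the upper left and POLD1, at 65% GC, at the lower right, and on the right POLD1 moves from -0.22 to -0.11 and MCM2 is the highest.

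Levels between genes were compared per kb of exon, with the merged exons of the GENCODE 29 basic annotation, which may differ from the annotation the authors counted on. For some members these exons add up to less than the longest transcript (for GINS3, 2391 against 3202 bases). In the controls the order began with TK1 (174 ± 5.34 CPM per kb, SD, n = 3), TYMS (168 ± 3.1), PCNA (157 ± 4.39), MCM7 (138 ± 3.9) and MCM3 (104 ± 3.08). TK1 and TYMS overlapped in their libraries, whereas TYMS, PCNA, MCM7 and MCM3 stood apart from one another. RPA1, RRM2, RRM1, MCM2, FEN1, MCM5 and MCM4 followed between 84.3 and 76.1 CPM per kb, each overlapping the next. MCM6, at 51 ± 2.55, was the lowest of the 6 ring subunits. POLD1 (48.2 ± 0.721) was the highest of the polymerase genes and POLE2 (8.1 ± 0.678) the lowest. E2F2 (5.08 ± 0.202) and CCNE1 (1.98 ± 0.16) closed the order. The median of the 46 genes in the controls was 31.4 CPM per kb, against 7.51 over 13262 genes with a length.

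**Figure D5:**
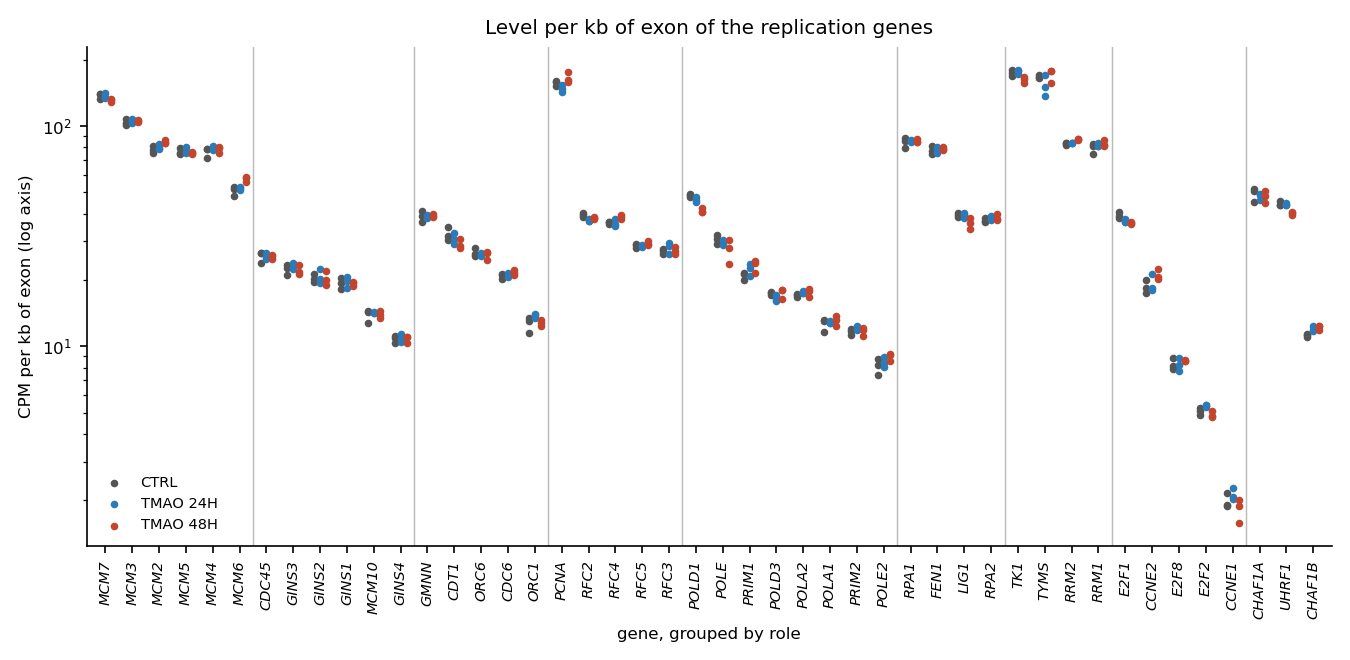
CPM per kb of exon (log axis) of the 46 replication genes in each library, coloured by group and ordered within each role by the control mean. The levels span from CCNE1 at 1.98 to TK1 at 174 CPM per kb in the controls, and the 3 groups lie close together for nearly every gene.

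The genes around the replication machinery were counted on lists chosen by their role. After 24H, 0 genes of any of 6 lists passed by edgeR or DESeq2, where 0.095% of all genes tested passed by edgeR. An unadjusted p under 0.05 was met by 7.24% of all genes tested. On the lists it was met by 2 of 37 other replication factors, 0 of 30 genes of nucleotide supply and 2 of 32 of G1/S control. It was also met by 3 of 30 of the checkpoint and repair, 1 of 15 of S phase chromatin and 0 of 20 of G2/M. After 48H, when 5.14% of all genes tested rose and 5.29% fell, 1 of 37 other replication factors rose and 3 fell. MCM8, a helicase used in repair, rose (log2 fold change 0.26, 0.13 to 0.39, adjusted p = 0.018). RECQL4, a helicase needed for origin firing, fell from 107 ± 3.47 to 85.9 ± 2.66 CPM (-0.31, -0.40 to -0.23, adjusted p = 0.000531), and CHTF18, of an alternative clamp loader, fell from 193 ± 11.7 to 143 ± 14.2 CPM (-0.43, -0.57 to -0.29, adjusted p = 0.00121). RNASEH2C, of the enzyme that removes ribonucleotides from DNA, was the other to fall (-0.22, adjusted p = 0.0268). With the GC content offset RECQL4 (adjusted p = 0.00799) and CHTF18 (0.00586) remained below the threshold whereas MCM8 (0.0569) and RNASEH2C (-0.18, adjusted p = 0.0808) did not. MCM8 also lost its call without CTRL replicate 3 (0.0591) or TMAO 48H replicate 2 (0.0806), and RNASEH2C without the same libraries (0.0727 and 0.113).

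Of 30 genes of nucleotide supply, 2 rose at 48H and 0 fell by edgeR, where 5.14% and 5.29% of all genes tested did. At an unadjusted p under 0.05, 4 were lower, as were 1863 of 14740 genes tested, and 1 fell with DESeq2. SAMHD1, which breaks down deoxynucleotides, rose from 102 ± 8.49 to 137 ± 5.85 CPM (0.44, 0.31 to 0.56, adjusted p = 0.00058). RRM2B, which encodes a subunit of ribonucleotide reductase, rose from 37.9 ± 2.92 to 53.4 ± 5.55 CPM (0.49, 0.32 to 0.67, adjusted p = 0.00239). The members RRM1 and RRM2, which also encode subunits of ribonucleotide reductase, had values of 0.062 and 0.067. The contrast between RRM2B and these members was not itself tested.

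Of 32 tested genes of G1/S control, 7 rose at 48H and 0 fell by edgeR or DESeq2, against 5.14% and 5.29% of all genes by edgeR. At an unadjusted p under 0.05, 2 were lower, as were 1863 of 14740 genes tested. CDKN1A, an inhibitor of cyclin-dependent kinases, was the largest. It stood at 213 ± 5.33 CPM in CTRL, 218 ± 2.42 CPM at 24H and 319 ± 2.64 CPM at 48H (n = 3). The 1.5-fold rise at 48H (log2 fold change 0.58, 0.50 to 0.66) had an adjusted p of 2.51e-06. The others were small. The pocket proteins RB1 (0.16, adjusted p = 0.0148), RBL1 (0.15, 0.0489) and RBL2 (0.13, 0.0411), the DREAM subunit LIN52 (0.24, 0.0207), the ligase subunit SKP2 (0.18, 0.021) and CCNA2 (0.13, 0.0483) made up the rest. With the GC content offset 2 genes of the list passed, CDKN1A and CDKN2C. When only the libraries of CTRL and 48H were fitted, the 6 genes other than CDKN1A lost their calls, with adjusted p of 0.0596 for RB1, 0.0543 for LIN52, 0.0508 for SKP2, 0.113 for RBL1, 0.108 for RBL2 and 0.13 for CCNA2. RBL1 lost its call without any one of 8 libraries, RBL2 without any one of 9 and CCNA2 without any one of 7, and SKP2 did so without CTRL replicate 1 (0.0574), CTRL replicate 2 (0.0847) or TMAO 48H replicate 2 (0.0796). RB1 lost its call without TMAO 48H replicate 2 (0.068), and LIN52 without CTRL replicate 1 (0.079), CTRL replicate 3 (0.0633) or TMAO 48H replicate 2 (0.0776). CDK2, the partner of cyclin E, had a value of 0.079 (adjusted p = 0.205). CCND1 had a value of -0.19 (adjusted p = 0.101), which passed without CTRL replicate 3 (-0.28, 0.00854). Between 48H and 24H the value of CCND1 was -0.24 (adjusted p = 0.0568 by edgeR). That difference passed with DESeq2 (0.0161) and the GC content offset (0.0332), but not with the replicate block (0.116). Its adjusted p was 0.05 or more in 3 of 10 alternatives that kept every library, and in 8 of 9 fits with a library left out.

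Of 30 genes of the replication checkpoint and repair, 4 rose at 48H and 0 fell by edgeR, with the same shares of all genes as above. At an unadjusted p under 0.05, 2 were lower, as were 1863 of 14740 genes tested, and 2 fell with DESeq2. Among the 4 that rose were ATR, the kinase that senses stalled forks (0.21, 0.12 to 0.31, adjusted p = 0.00869), MSH6, a mismatch repair gene (0.19, 0.0207), and USP1 (0.14, 0.0439). MSH6 lost its call without CTRL replicate 3 (0.0597) or TMAO 48H replicate 2 (0.0994). USP1 lost it when only CTRL and 48H were fitted (0.125) and without any one of 8 libraries (0.0566 to 0.152). With the GC content offset 0 of this list passed, and ATR had an adjusted p of 0.0557. Of 15 genes of S phase chromatin, 0 passed at 48H by edgeR or DESeq2, where 10.4% of all genes tested passed by edgeR. At an unadjusted p under 0.05 there were 2 (25.8% of all genes tested). Of 20 G2/M genes, 4 rose with DESeq2 and 2 by edgeR, where 5.14% of all genes tested rose by edgeR. The 2 were the mitotic kinesins KIF20B (0.23, 0.15 to 0.31, adjusted p = 0.00169) and KIF11 (0.17, 0.0156), and 0 passed with the GC content offset. KIF11 also lost its call when only CTRL and 48H were fitted (0.0569), and without CTRL replicate 2 (0.057) or TMAO 48H replicate 2 (0.0784). TOP2A, which untangles sister DNA, had a value of 0.15 (adjusted p = 0.0521 by edgeR). It passed with DESeq2 (0.00153), ribosomal RNA genes removed (0.041), the older quasi-likelihood fit (0.0432) and the transcript length offset (0.046), and without TMAO 48H replicate 1 (0.0355). With the GC content offset its value was 0.081 (adjusted p = 0.364). MKI67, a marker of cycling cells, had a value of 0.03 (-0.17 to 0.23, adjusted p = 0.883).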

How the data were processed

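Total RNA of 9 HMEC-1 libraries was sequenced. The authors trimmed reads with Trim Galore, per the labels, and the nf-core RNAseq pipeline was used. Deposited values are the authors' estimated counts (expected counts, 14.7% of values not whole) per gene symbol. The quantifier, build, annotation and strand setting are not given in the sources used here.

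Counts were rounded and fitted over all 9 libraries with edgeR 4.0.16 in R 4.3.3 (filterByExpr, TMM factors, glmQLFit with legacy = FALSE, glmQLFTest), with Benjamini-Hochberg adjustment over 14740 genes. An exact permutation test of 3 against 3 cannot go below p = 0.1, so p-values come from this model. Intervals (95%) came from the F statistic. The common biological coefficient of variation was 0.0744. GC content and transcript length came from the GENCODE 29 transcripts, and exon length and overlaps from its basic annotation (90% of tested genes matched). The code was tested on simulated data.

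The members and all lists were chosen with earlier results of these data known. Genes described in every library are those with an adjusted p under 0.05 in any comparison and the one with the largest log2 fold change at 48H in each role. From the other lists, those with the smallest p are named, with CCND1, CDK2 and MKI67, apart from genes not reported here. Other genes named were chosen after their values were seen. E2F5, PTPRC, LYZ, DCN, LUM, DES and PROX1 did not pass the filter. Alternatives were DESeq2 1.42.0, RLE factors, no filter, the older quasi-likelihood fit, a minimum of 10 counts per library, only the 2 groups compared, a replicate block, GC content and length offsets, ribosomal RNA genes removed, a test against 1.4-fold and leaving out each library. Intervals cover the spread between libraries only.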

Additional observations from a re-analysis of the deposited data

Results flagged for a closer look

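For 10 of the genes picked by the naming rule, the level at 48H differed from that at 24H in the direct test of the time-points (edgeR, adjusted p under 0.05). Of all genes tested, 7.53% passed it. The rule picked genes partly by their p in this same comparison, so the 10 are a listing and their number is not a result. Listed genes outside the rule passed as well. Longer exposure to TMAO and longer time in culture cannot be told apart in this comparison. Among the replication genes, the 10 include POLD1 (log2 fold change -0.17, adjusted p = 0.0155) and UHRF1 (-0.14, adjusted p = 0.0397), both lower at 48H in 3 of 3 libraries than in any library of 24H.

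Outside the group, CDKN1A (0.55, adjusted p = 2.23e-06), SAMHD1 (0.41, adjusted p = 0.000702), RRM2B (0.39, adjusted p = 0.0109), LIN52 (0.26, adjusted p = 0.0138) and KIF20B (0.19, adjusted p = 0.00687) were higher at 48H. RECQL4 (-0.22, adjusted p = 0.0045), CHTF18 (-0.26, adjusted p = 0.0235) and GART, an enzyme of purine synthesis (-0.15, adjusted p = 0.0401), were lower at 48H. Without TMAO 24H replicate 2, TMAO 24H replicate 3 or TMAO 48H replicate 2, CHTF18 had adjusted p of 0.0704, 0.0858 and 0.0526 and LIN52 of 0.0523, 0.0661 and 0.0593. RRM2B lost its call without TMAO 24H replicate 3 (0.0601) or TMAO 48H replicate 2 (0.0581). GART lost it without any one of 8 libraries (adjusted p 0.0525 to 0.139). With the GC content offset KIF20B had an adjusted p of 0.163. The cause of these losses was not tested.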

How the results depend on the processing

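No alternative gave a replication gene with an adjusted p under 0.05 at 24H, or one that also reached 1.4-fold in any comparison. At 48H, 3 genes passed as reported (10.4% of all genes tested), 1 when only the 2 groups were compared (POLD1, 6.78%) and 1 with the GC content offset (MCM2, 7.58%). With DESeq2 4 passed (MCM2 added, 13.5%), and with the transcript length offset 4 (POLE added, 11.7%). When a library was left out, 1 to 3 passed, where 4.71% to 10.7% of all genes tested did. Between the time-points, where 2 passed (7.53% of all genes tested), 5 did with DESeq2 (MCM6, PCNA and TK1 added, 9.35%). With the transcript length offset 4 passed (MCM6 and PCNA added, 8.98%). It was 1 with no filter on low counts (4.52%), 1 with the replicate block (4.96%) and 1 with the GC content offset (7.48%). When a library was left out, 0 to 3 passed, where 3.75% to 8.6% of all genes tested did. The count was 0 without TMAO 24H replicate 2 or 3 or TMAO 48H replicate 2. The replicate numbers did not pair the libraries. Same-numbered libraries had correlations of their deviations from -0.16 to 0.028, and 0 of 9 correlated best with its own number. With the replicate block 2 replication genes passed at 48H (MCM6 and POLD1), and 948 genes passed in all (6.43% of all genes tested). It also left 3 rather than 7 higher G1/S genes, 1 rather than 4 of the checkpoint and repair list, 2 rather than 3 lower other replication factors and 3 rather than 8 lower endothelial markers at 48H. Leaving out 1 library moved the median log2 fold change of the 46 genes from 0.0016 to 0.025 at 24H and from -0.0042 to 0.024 at 48H, and CTRL replicate 3 gave the low ends. Among the genes picked by the naming rule, the sign changed only for values that had not passed. With the GC content offset these were, at 24H, POLD1 (0.014), UHRF1 (0.006), CDT1 (0.0092) and LIG1 (0.013), and between the time-points ATAD2 (-0.0086), and members outside that rule also changed sign with it, among them GMNN and CHAF1A at 48H. With the transcript length offset they were RFC4 at 24H (0.014) and MKI67 at 48H (-0.038). When 1 library was left out, values at 24H ran from -0.0057 to 0.061 for MCM6, -0.019 to 0.015 for UHRF1, -0.038 to 0.015 for RFC4, -0.024 to 0.015 for LIG1, -0.03 to 0.1 for CCNE2, -0.035 to 0.066 for SAMHD1, -0.054 to 0.025 for LIN52, -0.033 to 0.094 for CCND1 and -0.1 to 0.045 for MKI67. At 48H they ran from -0.069 to 0.013 for GINS3 and -0.053 to 0.15 for MKI67, and between the time-points from -0.013 to 0.18 for MKI67. The causes were not tested.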

Other observations

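In TMAO 48H replicate 3, 2 epithelial genes of the marker list stood apart, with KRT5 at 4.12 CPM and EPCAM at 1.25 CPM, the lowest values of the 9 libraries. The highest were 53.6 CPM for KRT5 and 9.53 CPM for EPCAM. The replication genes of that library had a median log2 deviation from the control mean of 0.008, against 0.01 and 0.018 in the other 2 libraries at 48H.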
